A study of Homo sapiens with 3 samples.

Results

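The cells described here were the 20% of MM.1S myeloma cells with the highest share of mitochondrial RNA. In the Drop-seq library of MM.1S cells grown alone, 3947 of 3994 barcodes had at least 200 detected genes. In each, the share of unique molecular identifiers (UMIs, 1 per captured RNA molecule) on symbols starting with MT- was taken. The 789 cells in the highest 20% by this share, called high-share cells, were compared with the 789 in the lowest 20%, called low-share cells. The whole series held 11535 cells with at least 200 genes. The cells were thus chosen by a measured value, the mitochondrial share, and their mitochondrial values are given as a description.

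The study set MM.1S, an established human multiple myeloma line of malignant plasma cells, beside HS-5, an established human bone marrow stromal line, in an examination of how stromal contact relates to NF-kB in myeloma. One library each was made from MM.1S monoculture, HS-5 monoculture and a 4 h coculture of both lines. The labels name no drug and do not give the genotype of the cells. Each condition was 1 library of 1 line, so cells are not replicates, no test across samples was possible, and every interval given below is a 95% interval for counting error only.

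Human mitochondria carry a small circular genome that is transcribed from both strands into long precursors. These are cut into 13 messenger RNAs for subunits of the respiratory chain and ATP synthase, 2 ribosomal RNAs and a set of transfer RNAs. The other respiratory subunits, the mitochondrial ribosomal proteins and the polymerase and its cofactors are encoded in the nucleus. In single-cell studies the mitochondrial share of a cell is also widely used as a quality measure, because cells that have lost cytosolic RNA keep a larger mitochondrial part. In these data a larger mitochondrial content and a smaller cytosolic content give the same share and cannot be told apart.

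The high-share cells carried the RNA of the MM.1S line. The summed level of 15 MM.1S markers was 63250 CPM (UMI counts scaled to a common total, here over the UMIs that are not mitochondrial) in high-share cells and 59086 CPM in low-share cells. IGLC2, the lambda light chain constant region of the line, stood at 39343 and 38945 CPM. MZB1, an endoplasmic reticulum cochaperone of plasma cells, stood at 2566 and 2579 CPM. IGHA1, the alpha heavy chain, had 1 UMI in the high-share and 0 in the low-share cells. Of 15 stromal markers, CAV1 (494 CPM) and FN1 (1102 CPM in high-share against 763 CPM in low-share cells) were plainly detected in both groups, and the other 13 had at most 27 UMIs in either group. COL6A1, IL6 and TAGLN had 0 UMIs in both, which allows up to 3 UMIs in each. In HS-5 monoculture COL6A1 and IL6 stood at 737 and 1244 CPM, but TAGLN and LUM only at 0.33 CPM. CAV1 (366 CPM) and FN1 (259 CPM) were lower in HS-5 monoculture than in these MM.1S cells. The MM.1S marker SDC1 was higher in HS-5 monoculture (139 CPM, against 42.7 CPM in high-share cells). TAGLN, LUM, CAV1, FN1 and SDC1 therefore do not set the lines apart here. Genes specific to HS-5 summed to 420 CPM in high-share and 394 CPM in low-share cells, against 89890 CPM in the quintile of HS-5 monoculture cells with the highest share. No high-share cell had more than a 0.2 share of HS-5-specific UMIs among its line-specific UMIs. The line-specific genes were chosen as at least 50-fold apart between these same monocultures. The contrast of their sums with HS-5 cells thus followed from the choice and is no separate support for identity. The MM.1S library shared 44 barcodes with the HS-5 library and 39 with the coculture library.

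The mitochondrial share in MM.1S monoculture ran from 0.0302% to 53.3%, with a median of 6.24% and quartiles at 4.75% and 8.60%. Its SD over cells was 3.95 percentage points, where counting error at the median depth and share would give 0.516. The last cell inside the high-share group stood at 9.430% and the first outside at 9.426%, while the last low-share cell stood at 4.436% and the first outside at 4.439%. The median share was 3.62% in the 1642 MM.1S cells of the coculture, 2.38% in the 3732 HS-5 monoculture cells and 1.86% in the 2106 HS-5 cells of the coculture. A share above 5% was found in 2797 MM.1S monoculture cells (70.9%), against 12.6% of HS-5 monoculture cells. These populations differ in line, library and depth, which cannot be told apart with 1 library each.

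**Figure D1:**
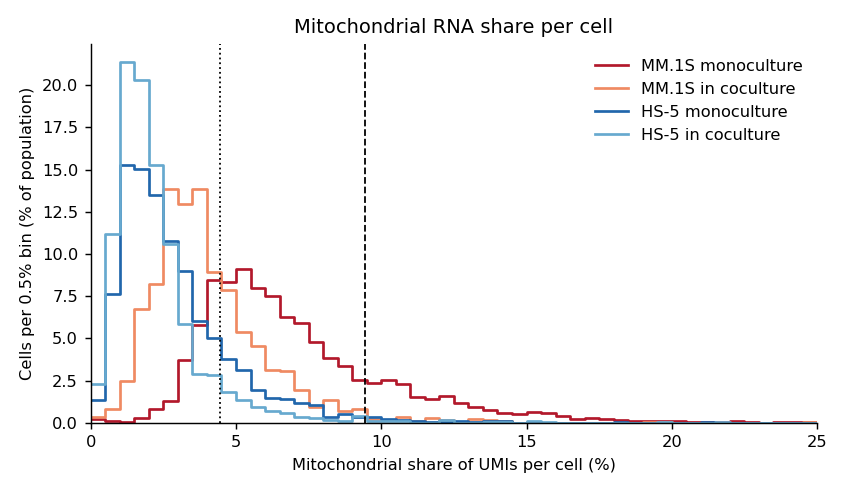
Distribution of the mitochondrial share of UMIs per cell (x axis, %) as the percent of cells of each population in bins of 0.5% (y axis), for MM.1S and HS-5 cells in monoculture and coculture. The dashed line marks the lower limit of the high-share MM.1S cells (9.430%) and the dotted line the upper limit of the low-share cells (4.436%). MM.1S monoculture cells (median 6.24%) lie to the right of the other populations, and the axis stops at 25%, below the highest cell at 53.3%.

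Depth moved with the share and is given before any gene. Over the 5 successive quintiles of cells (20% each) from lowest to highest share, the median UMI count per cell was 2407, 2269, 2308, 2184 and 1910. The median number of mitochondrial UMIs went up over the same quintiles from 89 to 239, while the median of other UMIs went from 2309 to 1674. High-share cells thus had both more mitochondrial and fewer other UMIs per cell. The median number of detected genes was 1167 in low-share and 913 in high-share cells, and cells with over 2 times the library's median UMIs made up 14.2% and 4.18%. Across all 3947 cells the Spearman correlation of share and UMIs was -0.15, a description over cells of 1 library whose share and UMI count have the same total in them.

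Much of the mitochondrial RNA in high-share cells was 1 molecule, the large ribosomal RNA MT-RNR2 (chrM:1671-3229, GRCh38). One row of the table, MTRNR2L12, is a nuclear copy of that gene on the reverse strand of chromosome 3 (chr3:96617188-96618236), and it had the largest ratio of any tested gene outside the mitochondrial genome. The sequences below, from GENCODE release 29, show why its value is uncertain. They are aligned windows of 100 bases, positions 219 to 318 of 1559 in MT-RNR2 and 220 to 319 of 1049 in MTRNR2L12, with the single differing base in capitals.
MT-RNR2: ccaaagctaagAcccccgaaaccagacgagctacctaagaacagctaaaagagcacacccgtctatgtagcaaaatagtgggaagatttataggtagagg
MTRNR2L12: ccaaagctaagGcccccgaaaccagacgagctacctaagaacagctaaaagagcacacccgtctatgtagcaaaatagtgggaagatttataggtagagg
The genes were identical at 95.3% of 1047 aligned bases, with an unbroken identical run of 103 bases, so a short read can fit both. MTRNR2L12 stood at 7.61, 17.2, 20.4, 36.7 and 126 CPM over the quintiles, and MTND2P28, a nuclear copy of MT-ND2, went from 30.9 to 111 CPM. These rows were kept in the tables but are not read as nuclear expression.

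MT-RNR2 made up 25.9%, 29%, 34.0%, 42.5% and 54.2% of mitochondrial UMIs over the quintiles. Of all UMIs it took 0.948% in low-share and 6.88% in high-share cells. The 13 messenger RNAs together took 2.66% and 5.65% of all UMIs. Their part of the mitochondrial UMIs therefore went the other way, from 72.6% to 44.6%. MT-RNR1, the small ribosomal RNA, stayed near 1.19% and 1.10% of mitochondrial UMIs. Of the 789 high-share cells, 667 (84.5%) were also in the highest 20% by MT-RNR2 alone and 496 (62.9%) in the highest 20% by the messenger RNAs alone. Across the 3947 cells the Spearman correlation of MT-RNR2 and the messenger RNAs, each per UMI that is not mitochondrial, was 0.51. Both ratios have the same denominator, and the value is again a description over cells of 1 library.

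**Figure D2:**
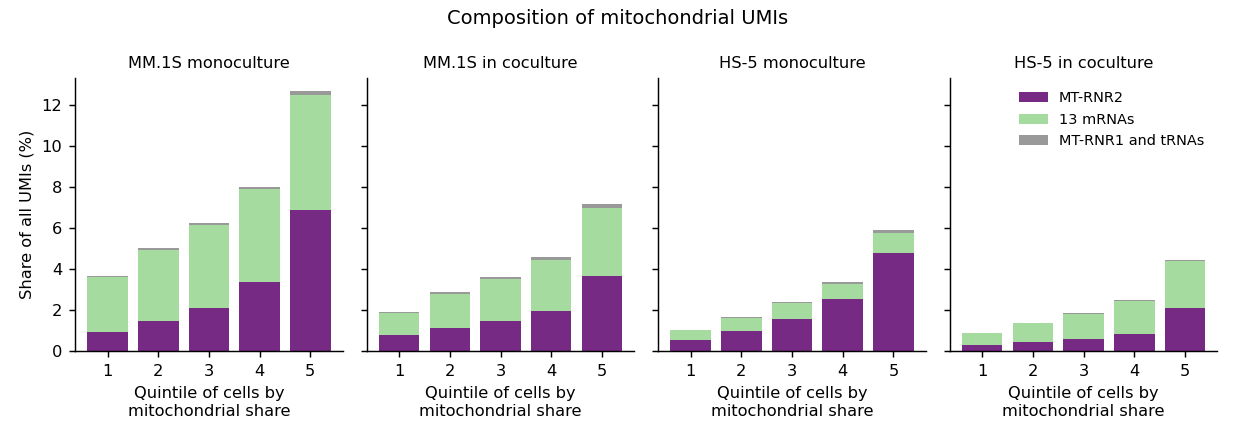
Mitochondrial UMIs as a percent of all UMIs (y axis) in the successive quintiles of cells by mitochondrial share (x axis, 1 lowest to 5 highest), split into MT-RNR2, the 13 messenger RNAs, and MT-RNR1 with transfer RNAs, in each population. In MM.1S monoculture MT-RNR2 goes from 0.948% to 6.88% and the messenger RNAs from 2.66% to 5.65%.

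The mitochondrial genes were not raised in equal measure. Per UMI that is not mitochondrial, MT-RNR2 was 8.0-fold and MT-RNR1 3.52-fold higher in high-share than in low-share cells. Among the messenger RNAs the ratio ran from 1.6 to 4.42, with a median of 2.62. The complex I subunits were spread over the whole of that range, with MT-ND5 at 4.32, MT-ND2 at 2.82, MT-ND4 at 2.78, MT-ND1 at 2.62 and MT-ND3 at 1.63. MT-CYB, the complex III subunit, was at 2.57. The catalytic complex IV subunit MT-CO1 was at 2.42, while MT-CO2 and MT-CO3 were both at 1.6. MT-ATP6, of the ATP synthase, was at 2.09. MT-ND4L (4.42) overlaps MT-ND4, MT-ATP8 (3.18) overlaps MT-ATP6, and MT-ND6 (3.12) is encoded on the other strand, so their reads may be divided between neighbours. MT-CO3 took 0.716%, 0.894%, 0.984%, 0.963% and 1.04% of all UMIs over the quintiles and so was nearly level from the third on. MT-ND5 was higher at every step, from 0.166% to 0.649%.

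For the remaining genes the level was taken as CPM over UMIs that are not mitochondrial, and the ratio as the log2 of high-share over low-share CPM with 1 added to each. A gene was tested for size when its mean over both groups was at least 50 CPM, and it was called when the ratio passed 1.5-fold. A gene under 50 CPM in 1 group thus passed the filter only through the group where it was higher. Of 2862 genes, 154 were called higher in high-share cells (5.38%) and 94 lower (3.28%), and the median of all genes was -0.04. The counting interval of the ratio left out 0 for all 154 and all 94. At this depth the level filter and the 1.5-fold limit all but fix that outcome, so it is no separate support. The level went up at each step over the quintiles for 59 of the 154 and went down at each step for 44 of the 94. With cells ranked within 10 strata of equal depth, where both groups had the same median UMIs, 134 were higher and 40 lower. The split depends on the scale. With CPM over all UMIs the median of all genes was -0.19 and 70 were higher against 186 lower, and centred on the median of all genes 205 were higher against 71 lower.

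Genes of cell division were lower in high-share cells. Of 46 genes of mitosis and the G2/M phase listed, 24 passed the level filter, all 24 were below the median of all genes, 16 were called lower and none higher, against the background of 3.28% of all tested genes. Their median was -0.91 against -0.04 for all genes. Their summed level was 5267, 4588, 4214, 3798 and 3169 CPM over the quintiles, so it went down at each step. The median was -0.57 with cells ranked within depth strata and -0.94 with each cell thinned to 1000 UMIs. With CPM over all UMIs it was -1.04. The 16 calls include genes, such as CDC20 and CCNB2, that were under 50 CPM in high-share cells. Such genes passed the level filter only through the low-share cells, so their calls are weak support for the list.

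CDC20, the activator of the anaphase-promoting complex, stood at 120, 70.2, 75.5, 58.5 and 37.4 CPM over the quintiles, a log2 ratio of -1.66 (-2.13 to -1.26). CCNB2, cyclin B2, went from 128 through 107, 94.9 and 64.8 to 40.7 CPM, a log2 ratio of -1.62 (-2.07 to -1.24). Both were lowest in the high-share cells and CCNB2 went down at every step. CCNB1, cyclin B1 and a partner of CDK1 at mitotic entry, was at 160 CPM in low-share and 64.7 CPM in high-share cells (-1.29). BIRC5, the survivin of the chromosomal passenger complex, was at 192 and 76.1 CPM (-1.32). PTTG1, the securin that holds separase in check, was at 281 and 119 CPM (-1.24), and HMMR, which binds hyaluronan and spindle microtubules, at 145 and 72.0 CPM (-1.0). The smallest differences of the list were those of SMC4, a condensin subunit (552 and 480 CPM, -0.20), and CKAP2, a spindle protein (142 and 129 CPM, -0.14, interval -0.41 to 0.12). CDC20 was detected in 160 low-share and 46 high-share cells, and CCNB2 in 172 and 47.

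The upstream sequences of the 3 lowest mitosis genes are shown because such genes often carry the cell cycle element TTTGAA and the CCAAT box in their promoters. Each is the 250 bases before the RefSeq start, GRCh38.p14, plus strand, with every TTTGAA (or TTCAAA on the other strand) and every CCAAT (or ATTGG) in capitals. They lie at chr1:43358731-43358980 for CDC20, chr15:59104896-59105145 for CCNB2 and chr1:37692266-37692515 for CDCA8, a passenger complex subunit called borealin.
CDC20: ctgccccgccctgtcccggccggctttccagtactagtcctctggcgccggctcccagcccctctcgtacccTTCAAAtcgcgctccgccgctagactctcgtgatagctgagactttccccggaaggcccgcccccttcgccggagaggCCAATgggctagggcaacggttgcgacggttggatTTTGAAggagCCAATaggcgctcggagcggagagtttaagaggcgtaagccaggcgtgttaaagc
CCNB2: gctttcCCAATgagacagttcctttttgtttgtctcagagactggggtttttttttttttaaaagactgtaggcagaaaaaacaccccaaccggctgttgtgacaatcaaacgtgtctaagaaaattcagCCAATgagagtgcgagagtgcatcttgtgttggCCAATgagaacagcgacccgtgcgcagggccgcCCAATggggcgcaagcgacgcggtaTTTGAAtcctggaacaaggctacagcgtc
CDCA8: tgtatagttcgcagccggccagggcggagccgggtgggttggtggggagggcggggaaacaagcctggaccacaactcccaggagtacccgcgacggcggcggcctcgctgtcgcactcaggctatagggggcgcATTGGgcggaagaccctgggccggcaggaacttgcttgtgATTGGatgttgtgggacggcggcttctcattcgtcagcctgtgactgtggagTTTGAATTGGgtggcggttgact
CDC20 held 2 matches to TTTGAA and 2 to CCAAT, CCNB2 1 and 4, and CDCA8 1 and 3, where the last pair overlaps by 1 base. Of the tested mitosis genes 20 had a sequence, and 10 of them (50%) held TTTGAA on either strand, against 8.18% of 2285 tested genes and 13.6% of 27305 promoters. CCAAT was in 75% of the 20, 38.6% of the tested genes and 33% of all promoters, and both motifs were in 45%, 3.81% and 4.85%. These are matches of letters in a window and not sites. The 20 genes come from a list chosen as mitosis genes, so their motif shares do not bear on the contrast between high-share and low-share cells. CDCA8 itself went from 92.6 to 32.7 CPM (-1.47), and it was named after its values were seen. It too passed the level filter only through the low-share cells.

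Genes of DNA replication and the S phase were lower too. Of 48 listed, 22 passed the filter, 12 were called lower, against 3.28% of all genes, and none higher, with a median of -0.61. Their sum was 4250, 4236, 4040, 4015 and 3001 CPM over the quintiles, so most of the difference lay between the fourth and the last. GINS2, part of the replicative helicase, went from 87.7 to 38.0 CPM (-1.18) and passed the level filter only through the low-share cells. TK1, the thymidine kinase of dividing cells, went from 152 to 68 CPM (-1.15). MCM4, another helicase subunit, had 108 and 94.7 CPM (-0.19, interval -0.50 to 0.12), and RFC1, the large subunit of the clamp loader, 107 and 115 CPM (0.11). CKS1B, a cyclin-dependent kinase subunit (237 and 101 CPM, -1.22), TRIP13, a checkpoint ATPase (142 and 67.4 CPM, -1.07), CENPH, a kinetochore protein (149 and 72.7 CPM, -1.03), and UBE2T, a ubiquitin conjugase of DNA repair (155 and 78.7 CPM, -0.97), were also among the 10 lowest genes by the rule. Ranked within depth strata, the S phase median was -0.33, and ranked by mitochondrial messenger RNA alone -0.25.

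Genes of the integrated stress response, the program that ATF4 drives when translation initiation is restrained, were lower or level. Of 36 listed, 10 passed the filter, 4 were called lower, against 3.28% of all genes, and none higher, against 5.38%. The median was -0.50. The sum was 2370 CPM in the low-share cells, between 1758 and 1907 CPM in the 3 middle quintiles and 1652 CPM in the high-share cells, so the lowest quintile stood apart from the rest. SLC3A2, the heavy chain of several amino acid transporters, stood at 284, 201, 178, 172 and 154 CPM (-0.88). MTHFD2, the mitochondrial folate enzyme, was at 226 and 131 CPM (-0.78), SHMT2, the mitochondrial serine hydroxymethyltransferase, at 165 and 108 CPM (-0.60), and EIF4EBP1, which binds eIF4E, at 245 and 159 CPM (-0.62). ATF4 itself was level at 93.5 and 92.7 CPM (-0.01, interval -0.33 to 0.30). CEBPG, a C/EBP transcription factor, was at 69.4 and 46.0 CPM (-0.58), DDIT4, an inhibitor of mTORC1, at 91.3 and 68 CPM (-0.42), and HERPUD1, of endoplasmic reticulum degradation, at 575 and 486 CPM (-0.24), all with intervals below 0. ALDH18A1, an enzyme of proline synthesis (60.9 and 52.7 CPM, -0.20), and SLC38A2, an amino acid transporter (61.8 and 57.4 CPM, -0.10), had intervals that held 0. YARS, the tyrosyl-tRNA synthetase, was the lowest of 16 synthetases tested (98.5 and 56.0 CPM, -0.80), and EPRS, the bifunctional one for glutamate and proline, was at 486 and 498 CPM (0.03).

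The nuclear genes for the respiratory chain did not follow the mitochondrial ones. Of 34 tested complex I subunits none was called in either direction, and the median was -0.19. Of all tested genes 5.38% were called higher and 3.28% lower. Complexes II, III and IV and the ATP synthase had medians of -0.31, -0.24, -0.22 and -0.19 over 4, 9, 12 and 17 tested genes, again with none called. Complex I genes summed to 11440, 11798, 11565, 11145 and 10160 CPM over the quintiles. COX8A, a small complex IV subunit, went from 820 to 607 CPM (-0.43), UQCRC2, a complex III core protein, from 171 to 123 CPM (-0.47), and SDHB, the iron-sulphur subunit of complex II, from 216 to 164 CPM (-0.39). NDUFV3, an accessory subunit of complex I, was the one furthest the other way (123 and 169 CPM, 0.46, interval 0.21 to 0.71). CYCS, cytochrome c, was at 558, 532, 496, 450 and 368 CPM (-0.60, interval -0.75 to -0.45) and so went down at each step. Ranked by mitochondrial messenger RNA instead of all mitochondrial RNA, the complex I and IV medians were -0.02 and -0.05 and CYCS was at -0.28.

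Factors that express the mitochondrial genome were no higher. Of 41 listed, 14 passed the filter and none was called, with a median of -0.22. TFAM, which packages mitochondrial DNA and starts transcription, was at 136 and 117 CPM (-0.21, interval -0.48 to 0.07), and TFB2M, its partner at the promoter, at 49.7 and 50.7 CPM (0.03). LRPPRC, which binds and steadies mitochondrial messenger RNAs, was at 75.6 and 81.4 CPM (0.10), whereas SLIRP, its partner, was at 511 and 390 CPM (-0.39, interval -0.54 to -0.24). PNPT1, a mitochondrial exoribonuclease, was at 120 and 96.7 CPM (-0.31), TRMT10C, of the ribonuclease P that cuts the precursors, at 141 and 129 CPM (-0.13), and SSBP1, which binds single-stranded mitochondrial DNA, at 654 and 566 CPM (-0.21). TBRG4, of the family that processes mitochondrial RNA, was the lowest of the list (61.8 and 44.7 CPM, -0.46, interval -0.91 to -0.04), and HSD17B10, of the same ribonuclease P, was at 278 and 229 CPM (-0.28). TUFM (375 and 290 CPM, -0.37), TSFM (86.8 and 68.7 CPM, -0.33) and GFM1 (56.4 and 48.0 CPM, -0.23), all elongation factors, were below 0, while the initiation factors MTIF2 (0.02 lower on the log2 scale, 101 and 100.1 CPM) and MTIF3 (94.0 and 84.7 CPM, -0.15) were near the median of all genes. The 57 tested mitochondrial ribosomal proteins had a median of -0.24, with 1 called lower, MRPL37 (122 and 76.7 CPM, -0.66), against 3.28% of all tested genes. Of 28 tested import and quality control genes none was called (median -0.15).

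Proteasome genes were lower by a small amount that most of them had in common. Of 40 tested, 37 were below the median of all genes but only 2 were called lower, against 3.28% of all tested genes. They were PSMC4, an ATPase of the base (76.5 and 46.7 CPM, -0.70), and PSMD3, a lid subunit (67.6 and 41.4 CPM, -0.69). Both passed the level filter only through the low-share cells, so their calls are weak support for the list. The median of the proteasome genes was -0.34. Heat shock proteins had a median of -0.26, with DNAJB1, an HSP40 cochaperone, lowest (103 and 64.7 CPM, -0.66) and HSPB1, a small heat shock protein, at 708 and 480 CPM (-0.56). Glycolysis genes had a median of -0.28. Of 11 tested there, GAPDH was the 1 called higher (41.6 and 64.0 CPM, 0.61), against 5.38% of all tested genes. However, GAPDH and FTH1, a ferritin subunit (45.2 and 96.1 CPM, 1.07), have many near-identical copies in the genome, so both are uncertain. Both also passed the level filter only through the high-share cells.

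The secretory apparatus of the plasma cell was nearly level. Of 47 tested genes of endoplasmic reticulum folding and translocation 1 was called higher, HYOU1, a large HSP70 chaperone (85.0 and 134 CPM, 0.65). Of all tested genes 5.38% were. The list median was -0.06. The 78 cytosolic ribosomal proteins had a median of -0.08 with none called, but many of them also have near-identical pseudogenes. Among immunoglobulin rows, IGLC2 was level (0.01) and JCHAIN, which joins antibody units, stood at 6327, 6716, 6972, 7606 and 8663 CPM (0.45, interval 0.42 to 0.49), higher at every step. IGKC, the kappa constant region, went the other way, with 589 and 440 CPM (-0.42, interval -0.56 to -0.28). IGLV2-14, a lambda variable segment (94.4 and 181 CPM, 0.94), shares sequence with other segments and is uncertain.

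Genes of plasma cell identity included 2 that were higher. Of 13 tested, 2 were called higher, against 5.38% of all genes, and none lower, with a median of 0.19. MAF, the transcription factor that the translocation of this line activates, stood at 899, 1042, 1172, 1284 and 1656 CPM, higher at every step (0.88, interval 0.80 to 0.97). IKZF3, the lymphoid factor Aiolos, went from 54.6 to 112 CPM (1.02, interval 0.69 to 1.39), and it too was higher at each step. TNFRSF17, the receptor BCMA, was at 120 and 112 CPM (-0.10, interval -0.38 to 0.19). CX3CR1, a chemokine receptor, had one of the 10 highest ratios by the rule. It stood at 295, 366, 412, 463 and 662 CPM (1.16, interval 1.02 to 1.31) and was detected in 368 low-share and 497 high-share cells. CCL5, a chemokine, was among the 10 lowest (151, 68.3, 72.0, 71.2 and 50 CPM, -1.57), but 3 cells held 28.5% of its UMIs in the low-share group.

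**Figure D3:**
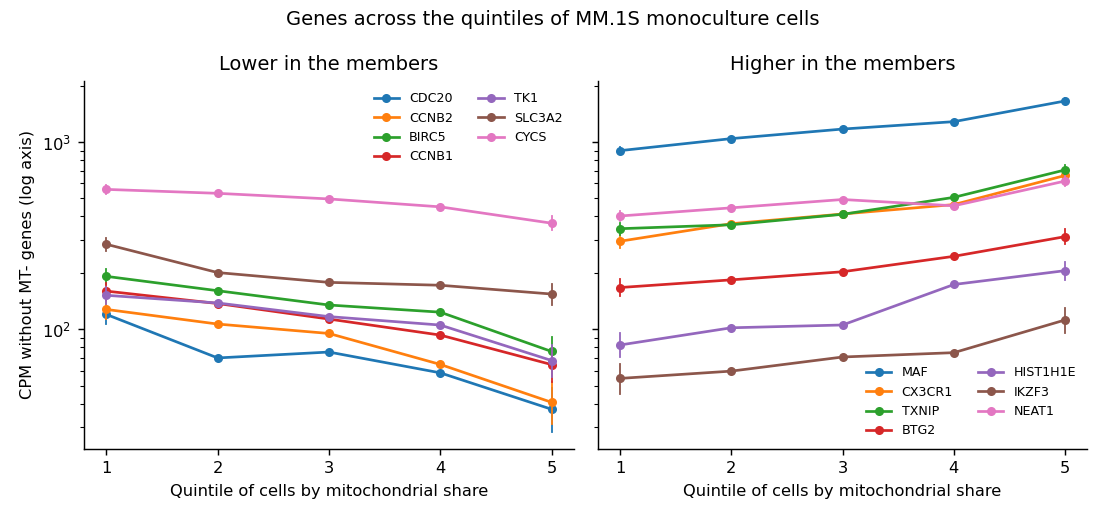
CPM without mitochondrial genes (y axis, log scale) of 14 genes in the successive quintiles of MM.1S monoculture cells by mitochondrial share (x axis, 1 lowest to 5 highest). Vertical bars at the first and last quintile are 95% counting intervals. CCNB2 goes from 128 to 40.7 CPM and MAF from 899 to 1656 CPM, each in one direction at every step.

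TXNIP, which inhibits thioredoxin and limits glucose uptake, went up at each step from 344 through 361, 411 and 506 to 709 CPM (1.04, interval 0.91 to 1.18). BTG2, an antiproliferative p53 target, did so from 167 to 312 CPM (0.90, interval 0.70 to 1.10). Several of the 10 highest genes encode long proteins. MYO5A, a myosin motor, went from 71.6 to 166 CPM (1.20), CEP350, a centrosomal protein, from 69.8 to 151 CPM (1.10), DST, a cytoskeletal linker, from 99.3 to 200.1 CPM (1.00), and TNRC6B, a partner of Argonaute, from 72.0 to 143 CPM (0.98). RABGAP1L, a GTPase regulator, went from 65.3 to 137 CPM (1.06). Ranked by mitochondrial messenger RNA, MYO5A was at 0.62, TNRC6B at 0.47, CEP350 at 0.25, RABGAP1L at 0.21 and DST at 0.07. Ranked by the mitochondrial ribosomal RNAs, the same genes were at 1.31, 1.15, 1.40, 1.04 and 1.44. Split into quartiles by the median length of the annotated transcripts, known for 98.6% of the genes, the tested genes had medians of -0.08, -0.08, -0.09 and 0.10 from shortest to longest. The part of transcript length in these values was not tested.

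Of 5 RNAs listed as retained in the nucleus that passed the filter, 2 were called higher, NEAT1 and MIAT, against 5.38% of all genes, and the median was 0.38. MALAT1, an abundant RNA of nuclear speckles, stood at 38133, 38215, 37778, 39458 and 49639 CPM, so that the difference lay almost wholly in the last quintile (0.38, interval 0.37 to 0.39). NEAT1, the scaffold of paraspeckles, was at 402 and 618 CPM (0.62), and MIAT, a long noncoding RNA, at 30.9 and 86.1 CPM (1.45, interval 1.05 to 1.92). MIAT passed the level filter only through the high-share cells, so its call is weak support for the list. OIP5-AS1 was at 78.3 and 72.7 CPM (-0.11) and PAXIP1-AS1 at 72.0 and 92.7 CPM (0.36). Ranked by mitochondrial messenger RNA, MALAT1 had the same level in both groups (0.00) and MIAT was at 0.10, whereas ranked by the mitochondrial ribosomal RNAs they were at 0.57 and 1.91.

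Of 6 replication-dependent histone genes tested, 4 were called higher, against 5.38% of all genes, with a median of 0.94. HIST1H1E, a linker histone, stood at 82.3, 102, 105, 173 and 205 CPM (1.31, interval 1.05 to 1.59), and HIST1H2AC, a core histone, at 52.4 and 129 CPM (1.28). HIST1H4C, the most abundant row of the list, was at 1599 and 1414 CPM (-0.18, interval -0.26 to -0.10), and the list's sum was therefore only 0.16 higher on the log2 scale. Histone genes resemble each other closely and their values are uncertain.

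The summed level of interferon response genes was higher at both ends of the range of shares. Of 14 tested, 6 were called higher, against 5.38% of all genes, and none lower, with a median of 0.47. The sum was 2775 CPM in the low-share cells, 2379, 2351 and 2468 CPM in the middle quintiles and 3426 CPM in the high-share cells. SAMD9L, an antiviral and antiproliferative protein, was at 110 and 220 CPM (1.0) and its neighbour SAMD9 at 57.7 and 101 CPM (0.80). ISG15, a ubiquitin-like modifier, stood at 698, 425, 448, 420 and 636 CPM (-0.13), and 3 cells held 20.6% of its UMIs in the low-share group. HERC5, its ligase, was at 85.0 and 60.0 CPM (-0.49). The list's median was -0.15 with cells ranked by mitochondrial messenger RNA and 0.83 with cells ranked by the ribosomal RNAs.

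Of 35 NF-kB target genes listed, 6 passed the filter, and 3 were called higher (5.38% of all genes were) with a median of 0.50. That median was 0.16 within depth strata, 0.22 with thinning and 0.17 ranked by mitochondrial messenger RNA. LTB, lymphotoxin beta, was at 44.3 and 82.1 CPM (0.87, interval 0.50 to 1.29) and passed the level filter only through the high-share cells. SOD2, the mitochondrial superoxide dismutase, was at 55.5 and 110 CPM (0.98), but a single cell held 75 of its UMIs in the high-share group. Without the cell with most SOD2 UMIs in each group, a choice made after seeing the data, the levels were 54.2 and 60.1 CPM (0.15), so 2 calls of the list remain, and its summed difference was 0.17 in place of 0.24. TNFAIP8 (138 and 137 CPM) and TNIP1 (82.3 and 82.1 CPM), a regulator of death signals and an NF-kB inhibitor, were level.

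The BCL2 family and caspase pathway was divided, with 2 of 10 tested genes called higher and 3 lower. Of all tested genes 5.38% were higher and 3.28% lower. The list median of 0.22 and the summed difference of -0.24 had opposite signs, and with CPM over all UMIs the median was -0.12. PMAIP1, the BH3-only protein NOXA, went from 109 to 42.0 CPM (-1.36), or -1.08 without the cell with most of its UMIs in each group, and BIRC5 and CYCS were the other 2 lower ones. CFLAR, which blocks caspase-8, was at 74.7 and 120 CPM (0.68, interval 0.37 to 1.00), and XIAP, which blocks effector caspases, at 49.7 and 75.4 CPM (0.59, interval 0.21 to 0.99). MCL1, a survival protein on which many myeloma cells depend, was at 48.8 and 69.4 CPM (0.50, interval 0.11 to 0.91). XIAP and MCL1 passed the level filter only through the high-share cells, and PMAIP1 only through the low-share cells. Ranked by mitochondrial messenger RNA, CFLAR was at 0.20, XIAP at 0.06 and MCL1 at -0.05, with a list median of -0.14. Within depth strata these values were 0.47, 0.52, 0.26 and 0.17. BCL2 (0.23), BAD (0.21), CASP8 (0.30) and AIFM1 (-0.25) had intervals that held 0.

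The same ranking was made in the other populations. Of genes called higher in MM.1S monoculture and tested in HS-5 monoculture, 78 of 89 (87.6%) were above 0 there, as were 45.2% of all 2147 genes tested in both. Of those called lower, 63 of 84 (75%) were below 0, against 54.8% of all. In coculture MM.1S cells 73 of 116 (62.9%, against 52.1% of all 2476) were above 0 and 55 of 78 (70.5%, against 47.9%) below. In coculture HS-5 cells these shares were 54.2% and 57.3%, against 50% of all 2144 genes in either direction. The Spearman correlation of the ratios across genes, which are not independent replicates, was 0.48 with HS-5 monoculture, 0.15 with coculture MM.1S and 0.02 with coculture HS-5 cells. In MM.1S cells of the coculture, with 328 cells per group, 10.9% of 3285 tested genes were higher and 8.98% lower, at a median depth of 660 UMIs in the highest quintile, and counting intervals were wider there. The mitosis genes had a median of -0.44 in those cells, 0.05 in HS-5 monoculture and -0.19 in HS-5 cells of the coculture. The S phase medians were -0.13, 0.04 and 0.00, and the stress response medians -0.14, -0.09 and -0.17. CDC20 was at 85.8 and 30.7 CPM (-1.45, interval -2.97 to -0.18) in coculture MM.1S cells, and MAF at 656 and 834 CPM (0.35, interval 0.03 to 0.66). The nuclear complex I genes had medians of 0.13, -0.48 and 0.07. Of 3671 genes tested in HS-5 cells of the coculture, 4.99% were higher and 4.47% lower. In HS-5 monoculture, where 3.86% of 3780 genes were higher and 5.95% lower, MT-RNR2 made up 81.1% of the mitochondrial UMIs of the highest quintile. The interferon list had medians of -0.33, 0.19 and 0.21, so its direction in MM.1S monoculture was not that in coculture MM.1S cells. The differences between populations were not tested, since each rests on 1 library.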

How the data were processed

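Drop-seq libraries of MM.1S monoculture, HS-5 monoculture and a 4 h coculture were analysed, 1 library each. The authors deposited 1 table of UMI counts for each library, with gene symbols as rows and barcodes as columns. The submitters' processing notes name Cell Ranger 3.0.2, UMI-tools 1.0.0, STAR 2.5.3a, featureCounts 1.6.4 and SAMtools 1.9. How barcodes were chosen and which annotation release was counted are not given in the sources used here, nor is strand handling. Multimapped reads can be lost or shared between copies, and Drop-seq reads the 3' end of polyadenylated RNA.

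Barcodes under 200 genes were dropped and the others ranked by the percent of UMIs on MT- symbols, and the highest and lowest 20% were compared. No doublet caller was run. UMIs were summed over cells and scaled to CPM without MT- genes. Log2 ratios had a pseudocount of 1 CPM, genes a mean of at least 50 CPM, and a call a ratio of at least 1.5-fold. No test was run, since cells are not replicates. Intervals at the 95% level are exact (Poisson for a level, conditional Clopper-Pearson for a ratio). Total UMIs were 10433182 for MM.1S, 6143448 for HS-5 and 3981392 for the coculture, and the median of kept MM.1S cells was 2201. Coculture cells were assigned by 82 MM.1S-specific and 231 HS-5-specific genes (at least 50 CPM and 50-fold between monocultures), as MM.1S below an HS-5 share of 0.2 and as HS-5 above 0.8, and 108 cells were left out.

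Genes were named as the 10 highest and 10 lowest ratios with at least 100 CPM, the 2 highest and 2 lowest of each of 40 lists, all filtered members of 4 lists (mitochondrial DNA expression, integrated stress response, BCL2 family and caspases, nuclear-retained RNA) and the mitochondrial mRNAs and rRNAs. The cells, members and lists were chosen with earlier results of these data known. Alternatives covered cell filters, tails, depth, ranking, scaling, pseudocount and level filter. Python 3.11.15, numpy 2.4.6, scipy 1.17.1, pandas 2.3.3 and matplotlib 3.10.9 were used, and the ratio script was tested on simulated data.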

Additional observations from a re-analysis of the deposited data

Results flagged for a closer look

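Summed list levels in the highest over the lowest quintile by mitochondrial share had opposite signs in MM.1S monoculture and in another population, differing by at least 0.3 on the log2 scale with counting intervals on either side of 0. None of these differences was tested, since each population is 1 library. Against HS-5 monoculture, the mitosis sum was -0.73 in MM.1S monoculture and 0.0737 in HS-5, and the S phase sum -0.50 and 0.0742. Heat shock proteins were at -0.27 and 0.189, and NF-kB targets at 0.24 and -0.128. Without the cell with most SOD2 UMIs in each group, a choice made after seeing the data, the NF-kB sum was 0.17, which leaves the difference just under 0.3. Against MM.1S cells of the coculture, interferon response genes were at 0.30 and -0.382 and nuclear-retained RNA at 0.38 and -0.210. The latter sums are nearly all MALAT1 (0.38 and -0.22), and the list median in coculture MM.1S cells was 0.09, with 2 of 4 tested genes above 0. Citrate cycle genes were at -0.21 and 0.235, and nuclear complex III genes at -0.20 and 0.165.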

How the results depend on the processing

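Of the list medians recomputed under the other settings, 461 stayed within counting error, 199 moved beyond it, and 1 past 1.5-fold changed sign. For the ratios of named genes these numbers were 2797, 311 and 3. The mitosis median ran from -1.04 to -0.57 and the stress response median from -0.90 to -0.41 over 18 settings. Genes higher and lower numbered 302 and 272 in tails of 10%, 80 and 46 in tails of 30%, 954 and 452 with a minimum of 10 CPM, 22 and 13 with 200 CPM, 29 and 53 ranked by mitochondrial messenger RNA, and 70 and 186 with CPM over all UMIs. Within depth strata 40 were lower, and with cells thinned to 1000 UMIs 164. The ratio of median UMIs, 0.794 as reported, was 1 within depth strata and 0.926 by messenger RNA. Of values past 1.5-fold, the sign changed for SOD2 in tails of 10% (-0.25), OPTN (-0.11) and EIF4B (-0.00739) by messenger RNA, and the histone median with 200 CPM (-0.18), where HIST1H4C was the 1 gene left. Without the ribosomal RNAs, MT-CO3 made up 18.3% of mitochondrial UMIs in high-share cells, against 8.17% with them. The cause of each shift was not tested. Thinning left out 77 of the cells. No paired analysis was possible because each group has 1 library. Depth limits the low genes, and 1 library cannot show how values vary between cultures.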
